A study of Mus musculus with 20 samples.

Results

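The 8 genes described here, Isg15, Ifit1, Ifit2, Ifit3, Oasl2, Rsad2, Usp18 and Irf7, are classical interferon-stimulated genes, chosen by name and matched by symbol to single Ensembl identifiers among the 37620 genes of the mouse count table. All 8 were found and all 8 passed the filter on low counts, which left 17824 genes to test. Their levels were read in B220+ cells of 3 groups. The first was 8 lymphomas of the VavPBcl2 model transduced with Myc (Myc lymphomas), the second 8 lymphomas of the same model with an empty vector (vector lymphomas), and the third 4 samples of normal spleen (normal cells), all C57BL/6. VavPBcl2 animals carry the anti-apoptotic gene Bcl2 under Vav regulatory sequences, which are active across blood cells and not in B cells alone, so both lymphoma groups share Bcl2 and differ from each other by the added Myc, a transcription factor of cell growth. Cells were taken with magnetic beads against B220 (a form of CD45 carried by B cells and by plasmacytoid dendritic cells); age and sex are not given in the sources used here.

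Interferons are secreted proteins that warn cells of infection. Type I interferons bind the receptor made of Ifnar1 and Ifnar2, the kinases Jak1 and Tyk2 activate STAT proteins, and these join Irf9 into a complex that binds a GAAA-rich element in the promoters of its target genes. Irf7, itself such a target, is the factor that amplifies the making of interferon, and in mouse plasmacytoid dendritic cells it is present before any stimulus.

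Promoters that hold the letters of that element are shown first, since some of the members hold them and the choice of members did not use them. The search looked for a pair of GAAA blocks set 2 bases apart, on both strands, in the 200 bases before the start of each RefSeq gene (build GRCm38.p6). Of 32851 such windows, 2.27% held a match. 7 of the 8 members had a RefSeq entry, and 4 of these 7 held a match, against 2.65% of all 27025 genes with an entry. Of the wider list of other interferon-stimulated genes, 23 of 56 with an entry held one. The 4 windows follow, 5′ to 3′ on the gene's own strand, with the matches in capitals; on the other strand the block reads TTTC. They lie at chr4:156200819-156201018 (minus strand) for Isg15, chr12:26456453-26456652 (minus strand) for Rsad2, chr19:34640689-34640888 (plus strand) for Ifit1 and chr19:34583329-34583528 (plus strand) for Ifit3.
Isg15: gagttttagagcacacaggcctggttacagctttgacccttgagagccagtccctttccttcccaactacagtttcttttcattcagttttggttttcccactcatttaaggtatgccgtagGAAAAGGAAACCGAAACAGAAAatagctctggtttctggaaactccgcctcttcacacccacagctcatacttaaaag
Rsad2: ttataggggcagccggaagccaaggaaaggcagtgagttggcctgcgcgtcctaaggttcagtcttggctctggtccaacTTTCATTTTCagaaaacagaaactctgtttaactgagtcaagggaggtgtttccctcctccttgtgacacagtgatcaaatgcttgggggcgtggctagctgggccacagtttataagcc
Ifit1: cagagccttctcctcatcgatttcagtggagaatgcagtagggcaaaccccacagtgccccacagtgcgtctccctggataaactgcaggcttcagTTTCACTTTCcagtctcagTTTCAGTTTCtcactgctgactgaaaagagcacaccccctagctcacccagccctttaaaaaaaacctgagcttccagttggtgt
Ifit3: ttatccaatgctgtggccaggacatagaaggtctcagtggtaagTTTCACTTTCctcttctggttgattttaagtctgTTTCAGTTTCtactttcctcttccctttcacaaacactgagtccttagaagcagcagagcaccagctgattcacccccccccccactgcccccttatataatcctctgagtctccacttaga
Isg15 held 3 overlapping matches in tandem, the first beginning 78 bases before the start. Ifit1 and Ifit3 each held 2 separate matches, beginning 104 and 85 bases before the start in Ifit1 and 156 and 122 bases before it in Ifit3, and Rsad2 held 1, beginning 120 bases before the start. The pair of matches in Ifit1 and the pair in Ifit3 have the same letters, TTTCACTTTC and TTTCAGTTTC. These are matches of letters and not measured binding, and the windows of Ifit2, Oasl2 and Irf7 did not hold these letters.

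Gene counts per sample ran from 28.73 M to 56.3 M (M for 1e6), and the counts behind the values below ranged from 123 (the lowest of Usp18) to 19577 (the highest of Rsad2) per sample, so counting error was small beside the spread between samples. Levels are CPM (counts scaled to a library of 1e6), from library sizes scaled by the trimmed mean of M-values (TMM). Differences are log2 fold changes with standard errors (SE) from edgeR's quasi-likelihood F test over all genes tested, two-sided, called at a Benjamini-Hochberg adjusted p under 0.05. The labels do not say whether samples of a group are separate animals, so the tests measure the spread between these samples, which may be technical, and replicate numbers only name the samples. Sample titles carry a prefix that no source used here explains: AO57 for Myc lymphomas 1 to 4, AO58 for Myc lymphomas 5 to 8, AO55 for vector lymphomas 1 to 3, AO56 for vector lymphomas 4 to 6, E205 for vector lymphomas 7 and 8, and AO74 for the normal samples. If samples with a shared prefix came from a shared source, p-values over single samples are too small. Myc itself averaged 979 ± 409 CPM in Myc lymphomas, 118 ± 65.6 in vector lymphomas and 242 ± 70.8 in normal cells (SD, n = 8, 8 and 4). It was lowest of its group in Myc lymphoma 5, at 313 CPM, against 717 to 1650 CPM in the other Myc lymphomas. That level lay within the 179 to 343 CPM of the normal cells. The labels give a sequencing instrument and a run number for each sample, and no date. Within each instrument, lower run numbers were read as earlier and higher ones as later. Run numbers of different instruments cannot be set in order. This reading put 13 samples in earlier sequencing runs (all 8 Myc lymphomas, vector lymphomas 7 and 8, and normal samples 2 to 4). The other 7 were in later ones (vector lymphomas 1 to 6 and normal sample 1). Run and group therefore overlap, so the tests were also made on the earlier runs by themselves; among vector lymphomas run period and the prefix E205 cannot be told apart. Myc lymphoma 5 stood apart, with a TMM factor of 0.675, against 0.913 to 1.12 in the other Myc lymphomas, and with 40.33% of reads aligned to more than 1 place, against 14.25 to 35.22% in the other 19 samples. Of 10 B cell markers 9 fell in Myc against vector lymphomas, where 21.9% of all genes did. In the earlier runs 5 of the 10 fell, where 4.40% of all genes did. The summed level of these markers was 2030 to 6570 CPM in Myc lymphomas, 6970 to 11000 CPM in vector lymphomas and 7540 to 8910 CPM in normal cells. In such bulk RNA, fewer cells of a type and less RNA per cell cannot be told apart.

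The 8 genes did not move as 1 block between the groups. Relative to vector lymphomas, Isg15, Ifit1 and Irf7 were higher in Myc lymphomas by 2.95-fold, 2.11-fold and 2.06-fold. Relative to normal cells, Rsad2 was higher in both lymphoma groups, by 8.68-fold in Myc lymphomas and 5.90-fold in vector lymphomas, and Isg15 was 7.72-fold higher in Myc lymphomas. The Ifit genes went another way in vector lymphomas, where Ifit2 and Ifit3 were below every normal sample without passing the test. As shares of the 8, these counts lie near the shares of all genes called. In Myc against vector lymphomas 3 of 8 members were called higher, where 26.6% of all genes tested were called higher and 21.9% lower. In Myc lymphomas against normal cells 2 of 8 were called higher, where 21.5% of all genes were called higher and 17.9% lower. In vector lymphomas against normal cells 1 of 8 was called higher, where 7.46% of all genes were called higher and 3.36% lower.

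By edgeR no member was called lower in any of the 3 comparisons, nor by DESeq2, although in vector lymphomas against normal cells edgeR called 3 lower with only those 2 groups in the fit, 2 without Myc lymphoma 5, 1 without Myc lymphoma 1 and 1 with library totals alone. At an unadjusted p under 0.05, 4 members differed between Myc and vector lymphomas and 3 between Myc lymphomas and normal cells, all of them higher in Myc lymphomas. Between vector lymphomas and normal cells 5 differed at that level, with Isg15 and Rsad2 higher and Ifit1, Ifit2 and Ifit3 lower in vector lymphomas. The median log2 fold change of the 8 members was 0.80 in Myc against vector lymphomas, where the median over all genes was 0.08. It was 0.60 in Myc lymphomas against normal cells (0.08 over all genes) and -0.25 in vector lymphomas against normal cells (-0.03 over all genes). With libraries scaled by their totals alone the medians over all genes were -0.11 in Myc lymphomas against normal cells and -0.18 in vector lymphomas against normal cells. That scaling called 2965 genes higher and 3946 lower in Myc lymphomas against normal cells, where TMM called 3831 and 3194. In vector lymphomas against normal cells it called 1032 and 866, where TMM called 1329 and 599.

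**Figure D1:**
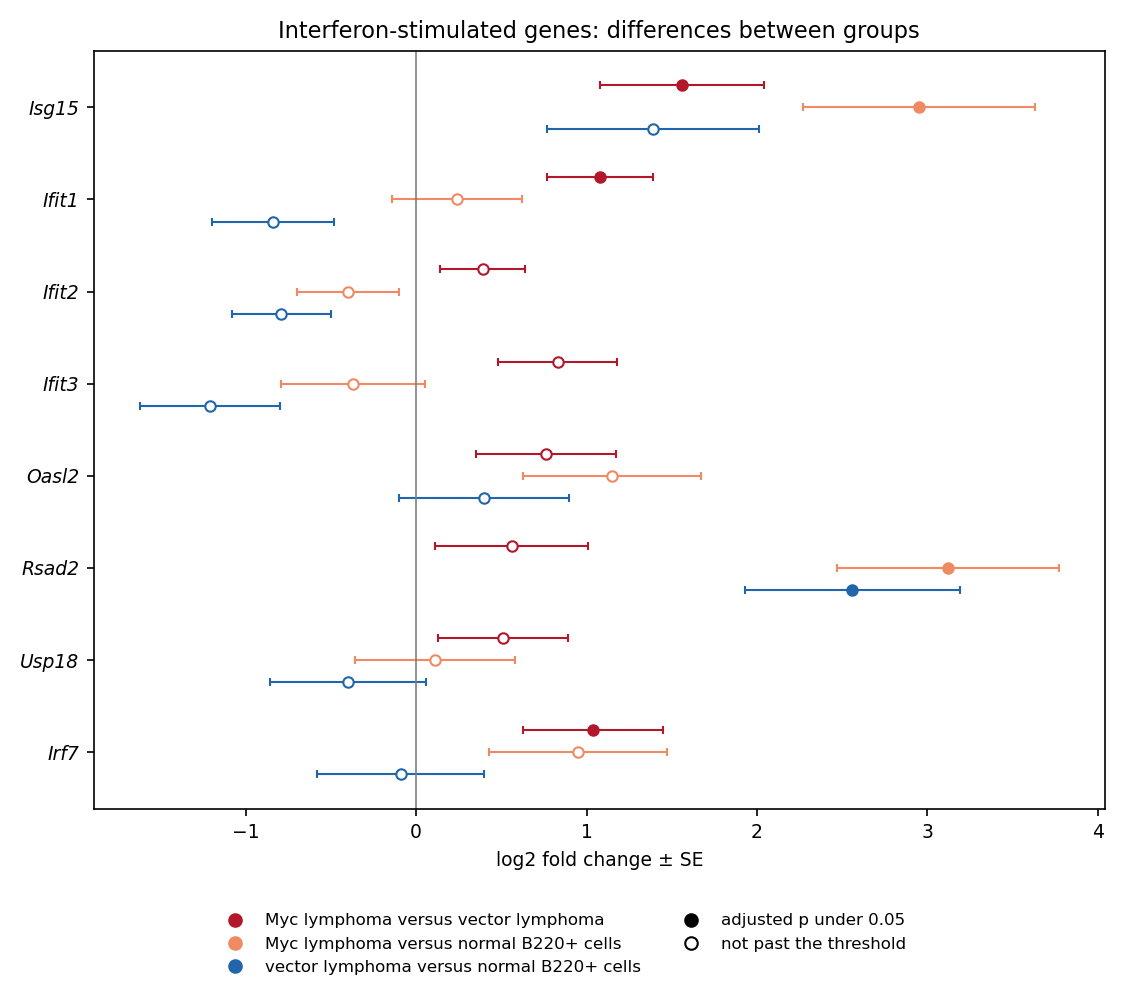
Log2 fold change (x axis) with its SE for each of the 8 genes (rows) in the 3 comparisons (colours); filled points have an adjusted p under 0.05. Isg15 and Rsad2 stand far right of 0 in Myc lymphomas against normal cells (2.95 and 3.12), while Ifit1, Ifit2 and Ifit3 lie left of 0 in vector lymphomas against normal cells (-0.84, -0.79 and -1.21).

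Within the earlier runs alone, where 2 vector lymphomas and 3 normal samples remain, the picture was thinner. By edgeR no member was called between Myc and vector lymphomas, where 2.97% of all genes were called higher and 4.40% lower. At an unadjusted p under 0.05, a looser threshold than that of these shares, 3 members were higher in Myc lymphomas. The log2 fold changes were nonetheless larger there than over all runs for Rsad2 (2.50 ± 0.79), Isg15 (2.30 ± 1.00), Ifit1 (1.57 ± 0.59) and Irf7 (1.41 ± 0.83). Rsad2 and Isg15 were again called higher in Myc lymphomas than in normal cells, where 12.7% of all genes were called higher and 7.97% lower. Between vector lymphomas and normal cells edgeR called no member, where 0.621% of all genes were called higher and 0.0432% lower. At an unadjusted p under 0.05, again not the threshold of these shares, 2 members were lower in vector lymphomas.

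With counts summed over samples of 1 title prefix, an alternative chosen after the data were seen that leaves 2 Myc, 3 vector and 1 normal sum, edgeR called none of the 8 members in any comparison; the lone normal sum is assumed there to vary like the others. In Myc against vector lymphomas 2 members were higher at an unadjusted p under 0.05, where 5.47% of all genes were called higher and 6.15% lower. For Myc lymphomas against normal cells 2 were higher at that level, where 0.622% of all genes were called higher and 0.550% lower. For vector lymphomas against normal cells 1 was higher and 2 lower at that level, where 0.0482% of all genes were called higher and 0.00482% lower. These shares of all genes are at an adjusted p under 0.05, a stricter threshold than that of the member counts, so they cannot be compared. The log2 fold changes were close to those over single samples: 3.09 ± 1.08 for Rsad2 and 2.73 ± 0.91 for Isg15 in Myc lymphomas against normal cells, and 1.37 ± 0.58 for Isg15, 1.05 ± 0.35 for Ifit1 and 0.85 ± 0.50 for Irf7 in Myc against vector lymphomas.

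Isg15 (ENSMUSG00000035692) encodes a ubiquitin-like protein that is attached to other proteins and is also secreted. It had 22.8, 53.7, 65.3, 65.6, 613, 89.1, 120 and 252 CPM in Myc lymphomas 1 to 8. Vector lymphomas had 26.9 CPM at the lowest, 55.2 at the median and 82.7 at the highest, and the 4 normal samples had 14.4, 26.4, 21.4 and 20.8 CPM. Myc lymphoma 1 was as low as normal cells, and Myc lymphomas 5 and 8 stood far above all others. All 8 vector lymphomas were above every normal sample, narrowly for the lowest, and 7 of 8 Myc lymphomas were. The log2 fold change was 2.95 ± 0.68 in Myc lymphomas against normal cells (adjusted p = 0.0021, edgeR) and 1.39 ± 0.62 in vector lymphomas against normal cells, which missed the threshold (adjusted p = 0.17). In Myc against vector lymphomas it was 1.56 ± 0.48 (adjusted p = 0.011), and the groups overlapped: 4 of 8 Myc lymphomas exceeded every vector lymphoma. That call rested on Myc lymphoma 5, whose Myc level lay within the range of normal cells. Without that sample the log2 fold change was 0.82 (adjusted p = 0.059, edgeR). With run period as a term it was 1.94 with an adjusted p of 0.10.

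Rsad2 (ENSMUSG00000020641) encodes viperin, an enzyme that turns CTP into a chain terminator of viral RNA synthesis. The 8 Myc lymphomas had 44.2, 70.6, 87.5, 145, 281, 125, 186 and 437 CPM. Vector lymphomas 1 to 6, of the later runs, had 99.2 to 217 CPM, and vector lymphomas 7 and 8, of the earlier runs, had 20.3 and 40.5. The normal samples had 10.9, 36.9, 15.8 and 15.6 CPM, so that every Myc lymphoma exceeded every normal sample. Rsad2 rose in Myc lymphomas against normal cells by 3.12 ± 0.65 on the log2 scale (adjusted p = 0.0010, edgeR) and held that call in 30 of 31 alternatives, losing it with counts summed by title prefix (adjusted p = 0.15). Against normal cells it also rose in vector lymphomas, by 2.56 ± 0.63 (adjusted p = 0.011). That call was lost within the earlier runs, where both vector lymphomas have the prefix E205: there the log2 fold change was 0.44 ± 0.76 (adjusted p = 0.96), with run as a term 1.45 ± 0.78 (adjusted p = 0.30), and within the later runs, which hold 1 normal sample, 3.77 ± 0.49 (adjusted p = 0.0051, an alternative chosen after the data were seen). Between Myc and vector lymphomas Rsad2 did not pass the test (0.56 ± 0.45, adjusted p = 0.32). Its neighbour on chromosome 12, Cmpk2, an interferon-induced nucleotide kinase, was at 0.62 ± 0.27 in Myc lymphomas against normal cells (adjusted p = 0.069) and at -0.03 ± 0.26 in vector lymphomas against normal cells (adjusted p = 0.97).

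Markers of red cell precursors moved in part with Isg15 and Rsad2. All 7 erythroid markers, haemoglobin chains and the erythroid factor Klf1 among them, rose in both lymphoma groups against normal cells. Of all genes 21.5% rose in Myc lymphomas and 7.46% in vector lymphomas. Their summed level was 3280 to 49200 CPM in Myc lymphomas, 2130 to 10200 CPM in vector lymphomas and 120 to 1760 CPM in normal cells, and none of the 7 was at 0 in a whole group. The highest sums, 49200 and 25700 CPM, were in Myc lymphomas 5 and 8, which also had the highest Isg15 and Rsad2. The lowest sums of the vector lymphomas, 2130 and 2940 CPM, were in replicates 7 and 8, which had the lowest Rsad2 and Isg15 of that group. Among normal samples, 1760 CPM in replicate 2 stood above 127, 130 and 120 CPM in replicates 1, 3 and 4, and that sample had the highest Rsad2 and Isg15 of the 4. Part of this pattern was shared by other marker sums. That of plasmacytoid dendritic cells was also highest in Myc lymphomas 5 and 8 (4500 and 2670 CPM) and, among normal samples, in replicate 2 (1830 CPM). That of macrophages and monocytes was highest in Myc lymphoma 5 (3020 CPM) and normal replicate 2 (1730 CPM). Neither was lowest in vector lymphomas 7 and 8. The part of red cell precursors or of these other cells in the result was not tested. Within the earlier runs all 7 erythroid markers again rose in Myc lymphomas against normal cells, where 12.7% of all genes did. In vector lymphomas against normal cells none of the 7 was called there by edgeR (0 at an unadjusted p under 0.05), where 0.621% of all genes were called higher. Their median log2 fold change was 1.58, where it was 3.19 over all runs.

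**Figure D2:**
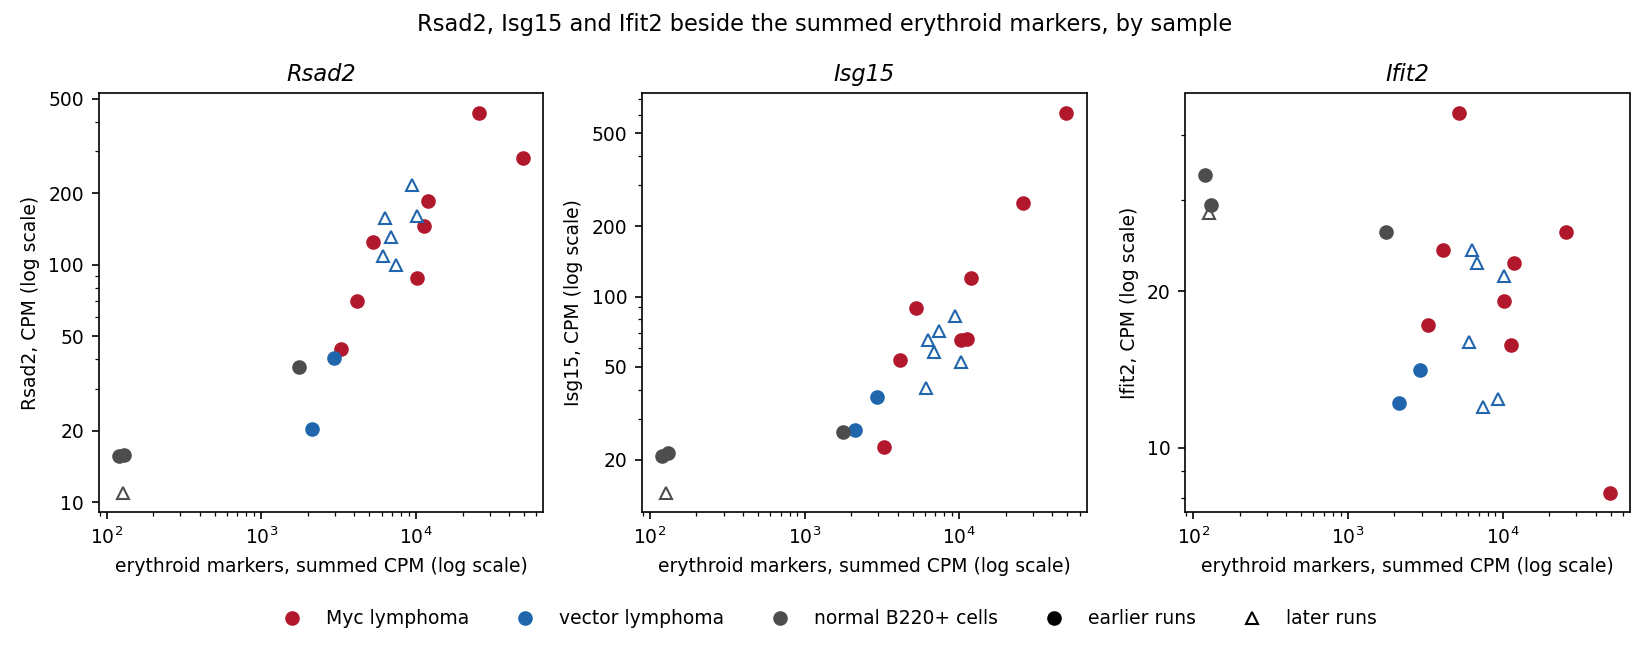
Each point is a sample; the x axis is the summed CPM of 7 erythroid markers and the y axis the CPM of Rsad2, Isg15 or Ifit2, all on log scales, with groups by colour and run period by symbol. Rsad2 and Isg15 are highest in the Myc lymphomas with the highest sums and, among vector lymphomas, lowest in those with the lowest sums. Among normal samples both are highest in the sample with the highest sum. Between these samples the order is not always kept, as the vector lymphoma with the highest sum has Isg15 below that group's median. Ifit2, shown for contrast after its values were seen, is lowest (8.17 CPM) in the sample with the highest sum (49200 CPM).

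Usp18 (ENSMUSG00000030107) encodes the protease that removes Isg15 from proteins and, at Ifnar2, dampens the response to type I interferon. It had 3.27, 14.1, 7.5, 23.9, 48.1, 44.9, 26.8 and 36.7 CPM in Myc lymphomas 1 to 8, against 8.88 to 27.5 CPM (median 19.7) in vector lymphomas and 23.0, 20.1, 27.1 and 24.9 CPM in normal cells. The Myc lymphomas reached both below and above the other two groups. None of the 3 differences passed the test: 0.51 ± 0.38 in Myc against vector lymphomas (adjusted p = 0.28, edgeR), 0.11 ± 0.47 in Myc lymphomas against normal cells (0.87) and -0.40 ± 0.46 in vector lymphomas against normal cells (0.64). Of the other genes that attach Isg15, Ube2l6, the conjugating enzyme, rose by 3.01 ± 0.57 in Myc lymphomas against normal cells (adjusted p = 0.00042, edgeR) and by 2.75 ± 0.56 in vector lymphomas against normal cells (0.0031). Uba7, the activating enzyme, fell in Myc against vector lymphomas by 0.60 (SE 0.19, adjusted p = 0.011), and Herc6, the mouse ligase, fell in Myc lymphomas against normal cells by 0.87 (SE 0.24, adjusted p = 0.0075). In the earlier runs Ube2l6 kept its call in Myc lymphomas (2.83, adjusted p = 0.0071), while the other 3 were lost: Ube2l6 in vector lymphomas was at 1.12 (adjusted p = 0.73), Uba7 at -0.31 (0.62) and Herc6 at -0.87 (0.054). Ube2l6 had 50.3 to 363 CPM in Myc lymphomas, 50.2 to 225 CPM in vector lymphomas and 12.3 to 42.2 CPM in normal cells, with its lowest vector lymphomas and highest normal sample in the same replicates as Rsad2.

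Ifit1 (ENSMUSG00000034459), which binds viral RNA lacking the methyl mark of host caps, was the member with the clearest separation of Myc from vector lymphomas. Its values were 4.84, 19.8, 8.48, 23.3, 25.2, 30.8, 28 and 26.5 CPM in Myc lymphomas and 15.8, 8.91, 6.49, 11, 12.2, 10.7, 4.50 and 9.5 CPM in vector lymphomas. Normal cells had 16.5, 15.7, 23.5 and 14.8 CPM. 6 of 8 Myc lymphomas exceeded every vector lymphoma, while Myc lymphomas 1 and 3 lay among them, and 7 of 8 vector lymphomas lay below every normal sample. Ifit1 rose in Myc against vector lymphomas by 1.08 ± 0.31 on the log2 scale (adjusted p = 0.0071, edgeR). It kept that call without any single sample and with run as a term (1.38 ± 0.48, adjusted p = 0.047), and lost it (adjusted p = 0.13) in the earlier runs. Against normal cells it did not pass the test in Myc lymphomas (0.24 ± 0.38, adjusted p = 0.63) or in vector lymphomas (-0.84 ± 0.36, adjusted p = 0.16).

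Ifit3 (ENSMUSG00000074896), a partner protein of Ifit1, had 3.96 to 52.1 CPM in Myc lymphomas (median 24.7), 8.96 to 23.1 CPM in vector lymphomas (median 13.3), and 28.8, 27.5, 42.7 and 36.4 CPM in normal cells. Every vector lymphoma was below every normal sample. The difference of vector lymphomas from normal cells was -1.21 ± 0.41 on the log2 scale (adjusted p = 0.065, edgeR) and that of Myc from vector lymphomas 0.83 ± 0.35 (adjusted p = 0.054). Neither passed the threshold, both lying close to it, and Myc lymphomas against normal cells gave -0.37 ± 0.42 (adjusted p = 0.50). Ifit2 (ENSMUSG00000045932), an RNA-binding protein of the same cluster on chromosome 19, also had its highest levels in normal cells. It had 8.17 to 44.2 CPM in Myc lymphomas (median 20.9), 12.0 to 24.0 CPM in vector lymphomas (median 15.0), and 28.3, 26.0, 29.3 and 33.5 CPM in normal cells. All vector lymphomas were again below all normal samples, as were 6 of 8 Myc lymphomas. The log2 fold changes were 0.39 ± 0.25 in Myc against vector lymphomas (adjusted p = 0.19, edgeR), -0.40 ± 0.30 in Myc lymphomas against normal cells (0.29) and -0.79 ± 0.29 in vector lymphomas against normal cells (0.091). Reads of the Ifit genes may be split with near-identical copies such as Ifit3b, so the division among them is uncertain.

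**Figure D3:**
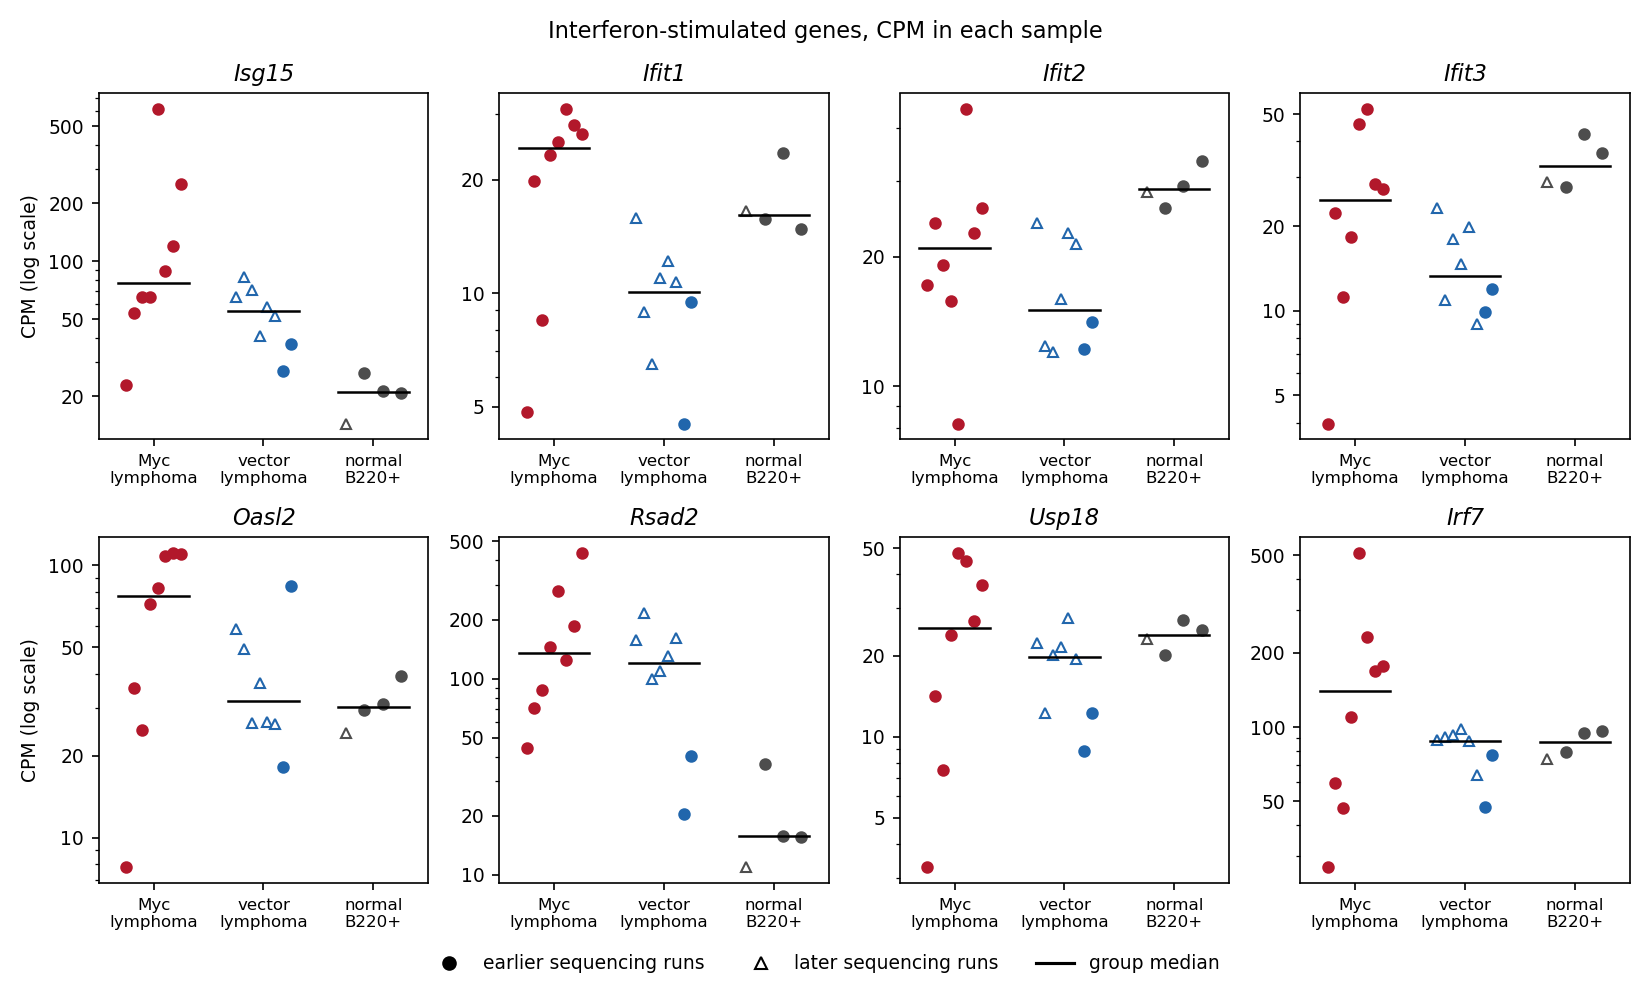
CPM on a log axis for each gene, with a point per sample, groups from Myc lymphomas at the left to normal cells at the right, filled circles for the earlier and open triangles for the later sequencing runs, and a bar at each group's median. In Rsad2 the 2 vector lymphomas of the earlier runs (20.3 and 40.5 CPM) sit apart from the 6 of the later runs (99.2 to 217 CPM).

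Oasl2 (ENSMUSG00000029561) belongs to the oligoadenylate synthetase family, which in mouse makes the messenger that switches on RNA decay. The 8 Myc lymphomas had 7.79, 35.5, 24.8, 71.9, 82.4, 108, 111 and 110 CPM, against 18.2 to 84.2 CPM in vector lymphomas (median 31.8) and 24.2, 29.4, 31.1 and 39.2 CPM in normal cells. 5 of 8 Myc lymphomas were above every normal sample and 1, replicate 1, was below. No comparison passed the threshold: 0.76 ± 0.41 in Myc against vector lymphomas (adjusted p = 0.13, edgeR), 1.15 ± 0.52 in Myc lymphomas against normal cells (0.082) and 0.40 ± 0.50 in vector lymphomas against normal cells (0.67). Its neighbour and close relative Oasl1 may share reads with it.

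Irf7 (ENSMUSG00000025498) is the only transcription factor among the 8. It had 26.9, 59.3, 47.0, 110, 510, 233, 169 and 177 CPM in Myc lymphomas 1 to 8. Vector lymphomas had 47.3 CPM at the lowest, 88.1 at the median and 98.4 at the highest, and normal cells had 73.9, 79.4, 94.8 and 96.7 CPM. 5 Myc lymphomas were above all samples of the other two groups, and 3 were below every normal sample, so the Myc group enclosed both others. Irf7 rose in Myc against vector lymphomas by 1.04 ± 0.41 on the log2 scale (adjusted p = 0.040, edgeR), a call so near the threshold that 19 of 31 alternatives lost it, among them 13 of the 20 that left out a sample. Without Myc lymphoma 5 the log2 fold change was 0.55 (adjusted p = 0.18). Against normal cells the log2 fold change was 0.95 ± 0.52 in Myc lymphomas (adjusted p = 0.15) and -0.09 ± 0.49 in vector lymphomas (adjusted p = 0.93). Irf7 lies on the strand opposite to Phrf1, which it overlaps, and no source used here gives the strand setting of the counting, so reads of their shared stretch cannot be told apart.

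Markers of plasmacytoid dendritic cells, which carry B220, stood beside Irf7. In Myc against vector lymphomas 7 of their 12 markers rose and 3, Irf8 among them, fell, where 26.6% and 21.9% of all genes did. Against normal cells 4 rose and 2 fell in Myc lymphomas, where 21.5% and 17.9% of all genes did. The summed level was 956 to 4500 CPM in Myc lymphomas, 1380 to 1580 CPM in vector lymphomas and 1620 to 1830 CPM in normal cells, with no marker at 0 in a whole group. Myc lymphomas 5, 8 and 6 had the highest sums (4500, 2670 and 2470 CPM), and their Irf7 was 510, 177 and 233 CPM, the 3 highest of all samples. Siglech, a lectin of these cells, had 44.6 to 260 CPM in Myc lymphomas, 2.65 to 37.3 CPM in vector lymphomas and 36.2 to 66.2 CPM in normal cells. Bst2 and Ly6c2 of this list are themselves induced by interferon. In the earlier runs 4 of the 12 rose and 0 fell in Myc against vector lymphomas, where 2.97% and 4.40% of all genes did. Of markers of other cells, 7 of 11 for neutrophils and 7 of 10 for NK cells rose in Myc against vector lymphomas, where 26.6% of all genes did. By edgeR on the earlier runs these counts were 0 of 11 (also 0 higher at an unadjusted p under 0.05), with a median log2 fold change of 0.73 in place of 2.43, and 3 of 10. Against normal cells 10 of 11 neutrophil markers rose in Myc lymphomas, both over all runs (median 3.77) and within the earlier runs (median 3.60). Of all genes 21.5% and 12.7% did. In vector lymphomas against normal cells 0 of 11 were called in either, with 10 higher at an unadjusted p under 0.05 within the earlier runs. Of 10 NK cell markers 5 rose and 2 fell in Myc lymphomas against normal cells, where 21.5% and 17.9% of all genes did. In vector lymphomas against normal cells 7 of the 10 fell (median -1.4), where 3.36% of all genes did. Within the earlier runs 0 of the 10 were called there by edgeR, with 5 lower at an unadjusted p under 0.05. The neutrophil sum was 1810 to 18000 CPM in Myc lymphomas, 64.0 to 6560 CPM in vector lymphomas and 94.8 to 1020 CPM in normal cells, and the NK cell sum 195 to 686, 82.5 to 143 and 185 to 302 CPM in the same order, with no marker of either at 0 in a whole group. The part of any of these cells in the result was not tested.

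Among the Myc lymphomas the levels parted by title prefix. The mean log2 CPM of the 8 genes was 3.48, 5.02, 4.55, 5.43, 6.45, 6.21, 5.94 and 6.30 in Myc lymphomas 1 to 8, so that it was 5.94 to 6.45 in the 4 with the prefix AO58 and 3.48 to 5.43 in the 4 with the prefix AO57. For 6 of the 8 genes, all but Ifit2 and Rsad2, each AO58 sample was above each AO57 sample. The share of all genes parted in this way was not counted, so the split is not shown to be particular to these genes. The mean log2 CPM of the 8 genes spanned 3.89 to 5.40 in vector lymphomas (median 4.92) and 4.55 to 4.94 in normal cells. The SD between samples was 1.03 in Myc lymphomas, 0.45 in vector lymphomas and 0.18 in normal cells. In Myc lymphoma 6 all 8 genes were above every normal sample, in Myc lymphoma 5 it was 7 of 8, and in Myc lymphoma 1 only Rsad2 was above while 6 were below. Shares of all genes above or below every normal sample were not counted either. Leaving out Myc lymphoma 1 raised the number of members called higher in Myc against vector lymphomas to 5, adding Ifit3 (adjusted p = 0.0066, edgeR) and Oasl2 (0.027).

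**Figure D4:**
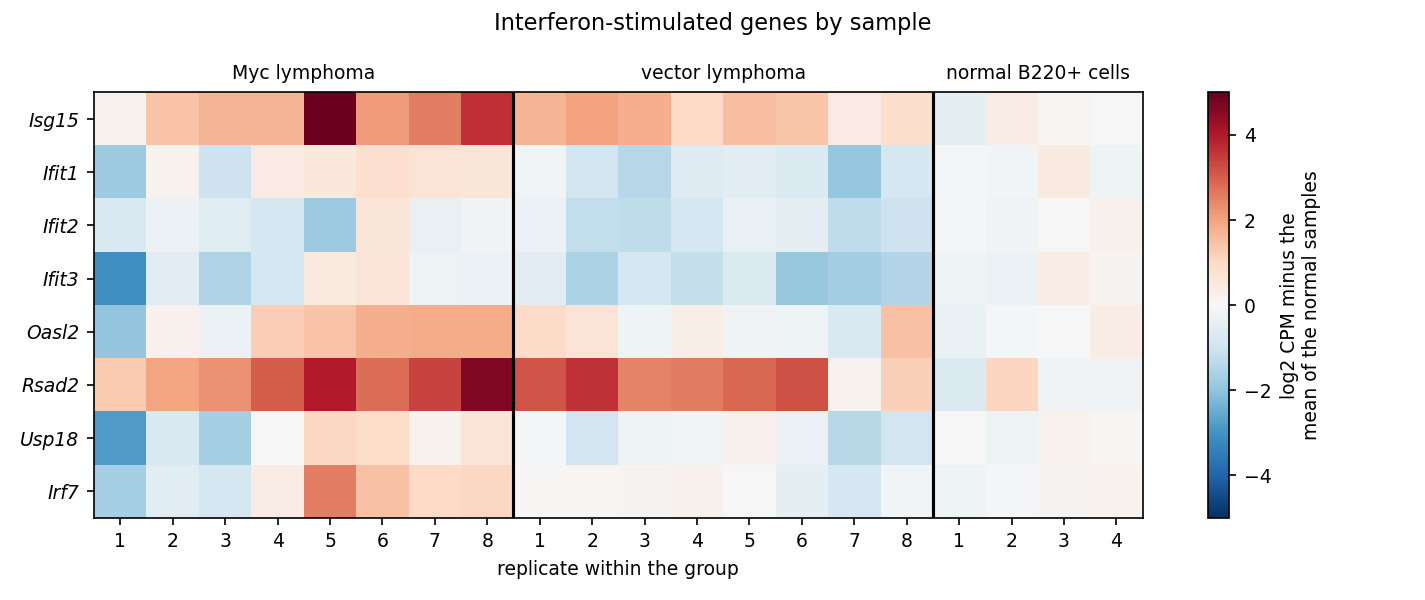
Each cell is the log2 CPM of a gene (rows) in a sample (columns) minus the mean of the 4 normal samples, red above and blue below. Isg15 and Rsad2 are red in nearly all lymphomas, the Ifit genes are mostly blue in vector lymphomas, and Myc lymphoma 1 is blue in most genes while Myc lymphomas 5 to 8 are mostly red.

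After each group's mean was taken away, the members varied together from sample to sample. Pearson's r over the 28 pairs and 20 samples ranged from -0.25 to 0.92 with a median of 0.67, as a description of samples that share library and depth. Only group means were removed, so the difference between the prefixes AO57 and AO58 remains in these values and in the ranking below. Ifit3 and Usp18 were the closest pair (0.92), followed by Usp18 and Irf7 (0.91). Ifit2 was the exception, with r of 0.36 with Ifit1, 0.22 with Ifit3 and -0.25 with Isg15. Within the 8 Myc lymphomas the median over the pairs was 0.82 and within the 8 vector lymphomas 0.50. Between groups, by contrast, Isg15 and Rsad2 parted from the Ifit genes. The mean log2 CPM of Isg15 and Rsad2 minus that of Ifit1, Ifit2 and Ifit3, a contrast chosen after the values were seen, ran from 1.35 to 4.29 over the Myc lymphomas, from 1.51 to 3.65 over the vector lymphomas and from -0.92 to 0.48 over the normal samples, with no overlap of either lymphoma group with normal cells.

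The genes most like the 8 were mostly further targets of interferon. Ranked by Pearson's r with the mean of the 8 after removal of group means (20 samples, 13416 genes of at least 1 CPM), the first 10 were Dhx58 (0.92), Mx2 (0.91), Ifit3b (0.90), Rtp4 (0.89), Oasl1 (0.87), Plpp3 (0.86), Cmpk2 (0.86), Mx1 (0.86), Tmem229b (0.85) and Vangl2 (0.85). Dhx58 encodes the viral RNA sensor LGP2, and Mx1 and Mx2 encode antiviral GTPases. 69 other listed interferon-stimulated genes had a median r of 0.43, against -0.03 over all genes ranked, and 16 of them were among the first 100. Likeness from sample to sample did not make them alike between groups. Mx1 rose in Myc against vector lymphomas by 0.97 ± 0.31 (adjusted p = 0.013, edgeR) and fell in vector lymphomas against normal cells by 1.23 (SE 0.36, adjusted p = 0.029). Dhx58 gave 0.09 ± 0.26 (adjusted p = 0.79) and -0.25 ± 0.32 (0.68) in the same comparisons. Plpp3, a lipid phosphatase, fell in Myc lymphomas against normal cells by 2.78 (SE 0.44, adjusted p = 8.2e-05).

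Of those 69 genes tested, 19 rose and 13 fell in Myc against vector lymphomas, with a median log2 fold change of 0.15. Of all genes 26.6% and 21.9% did, close to these shares. Within the earlier runs the counts were 3 and 1, where 2.97% and 4.40% of all genes did. Ifi44 rose by 2.40 ± 0.42 (adjusted p = 0.00012, edgeR), Bst2, which tethers budding virus, by 2.36 ± 0.41 (0.00010), Ly6c2 by 3.14 ± 0.36 (9.8e-07) and Lgals3bp by 1.40 ± 0.16 (1.2e-06). In Myc lymphomas against normal cells 7 rose and 23 fell, with a median of -0.40, where 21.5% of all genes rose and 17.9% fell. Within the earlier runs 5 rose and 12 fell, where 12.7% and 7.97% of all genes did. Over all runs Isg20, an exonuclease, rose by 2.73 ± 0.50 in that comparison (adjusted p = 0.00033, edgeR). Samd9l fell by 1.94 (SE 0.29, adjusted p = 5.6e-05) and Gbp4, a guanylate-binding protein, by 1.45 (SE 0.27, adjusted p = 0.00035). For vector lymphomas against normal cells, 2 rose, Ube2l6 and Isg20 (1.81 ± 0.47, adjusted p = 0.016), and 7 fell, with a median of -0.39, where 7.46% of all genes rose and 3.36% fell. Epsti1 fell by 0.94 (SE 0.20, adjusted p = 0.0040) and Ifi203 by 1.47 (SE 0.31, adjusted p = 0.0043). Without Myc lymphoma 5 the number that fell was 14, and within the earlier runs edgeR called none of the 69 there (2 higher and 7 lower at an unadjusted p under 0.05); Ube2l6, Isg20, Epsti1 and Ifi203 were at 1.12, 1.16, -0.72 and -1.31 (adjusted p from 0.40 to 0.74). Isg20 was highest in Myc lymphomas 5 and 8 and, among normal samples, in replicate 2, as the summed erythroid and plasmacytoid dendritic cell markers were. Of 18 tested genes better known for type II interferon, 11 fell and 1 rose in Myc against vector lymphomas, where 21.9% of all genes fell. In Myc lymphomas against normal cells 11 fell, where 17.9% of all genes did. On the earlier runs alone 3 fell against vector lymphomas and 8 against normal cells, where 4.40% and 7.97% of all genes did. Of the type II genes, Ciita, the master factor of MHC class II, fell by 2.14 over all runs (SE 0.24, adjusted p = 6.8e-07, edgeR) in Myc against vector lymphomas. Cd274, which encodes PD-L1, fell by 1.44 (SE 0.27, adjusted p = 0.00022) in the same comparison.

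Transcripts of type I and type III interferon were few or not seen. Of 21 listed interferon genes, type II included, 11 were matched in the table, and 7 of these had no count in any sample, which allows up to 3 counts in each library. Ifnb1 had 9 counts in all, in 2 Myc lymphomas. Type I interferon genes are a family of close copies, so reads from them may have been lost as aligned to several places. Only Ifng, the type II interferon of T and NK cells, was tested. It had 0.973 to 3.53 CPM in Myc lymphomas, 3.70 to 12.2 CPM in vector lymphomas and 3.12 to 4.62 CPM in normal cells, and it fell in Myc against vector lymphomas by 1.40 (SE 0.27, adjusted p = 0.00035, edgeR), a call lost within the earlier runs (-1.12, adjusted p = 0.096).

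The receptors changed one by one. Ifnar2 rose in Myc lymphomas by 0.99 ± 0.13 against vector lymphomas (adjusted p = 4e-06, edgeR) and by 0.53 ± 0.16 against normal cells (0.011). Its partner Ifnar1 was at -0.23 ± 0.20 in Myc against vector lymphomas (adjusted p = 0.36) and fell by 0.61 (SE 0.24, adjusted p = 0.049) in Myc lymphomas against normal cells. Ifnar2 had 66.5 to 113 CPM in Myc lymphomas, 33.3 to 51.5 CPM in vector lymphomas and 53.2 to 63.3 CPM in normal cells, with no overlap between Myc lymphomas and either of the others. Ifnlr1, the chain specific for type III interferon, was highest in vector lymphomas. It fell in Myc against vector lymphomas by 1.43 (SE 0.22, adjusted p = 3.3e-05) and rose against normal cells by 0.97 ± 0.28 in Myc lymphomas (0.0095) and by 2.39 ± 0.30 in vector lymphomas (4.9e-05). Ifngr2, a chain of the type II receptor, fell against normal cells by 1.12 in Myc lymphomas (SE 0.22, adjusted p = 0.00054) and by 0.88 in vector lymphomas (SE 0.22, adjusted p = 0.012). Ifngr1 and Il10rb, the other chains of the type II and type III receptors, lay between -0.63 and 0.31, with adjusted p from 0.084 to 0.49 by edgeR. The calls that held within the earlier runs were Ifnar2 (0.88, adjusted p = 0.036) in Myc against vector lymphomas, Ifngr2 (-1.10, 0.014) in Myc lymphomas against normal cells and Ifnlr1 (2.23, 0.041) in vector lymphomas against normal cells. The other 5 were lost there, with Ifnlr1 at -1.27 in Myc against vector lymphomas (adjusted p = 0.050).

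Below the receptor, most of the signal chain was lower in Myc lymphomas. 4 of 6 listed genes (Jak1, Tyk2, Stat2 and Stat3) fell against vector lymphomas, where 21.9% of all genes did, with a median log2 fold change over the 6 of -0.57. All 6, with Jak2 and Irf9, fell against normal cells, where 17.9% of all genes did, with a median of -0.69. Stat3, which relays signals of many cytokines, had 56.6 to 195 CPM in Myc lymphomas, 255 to 340 CPM in vector lymphomas and 235 to 277 CPM in normal cells, with no overlap of Myc lymphomas with either. It fell by 0.94 against vector lymphomas (SE 0.18, adjusted p = 0.00030, edgeR) and by 0.67 against normal cells (SE 0.21, adjusted p = 0.018). Stat2 fell by 0.57 (SE 0.21, adjusted p = 0.035) and 0.69 (SE 0.26, adjusted p = 0.036) in the same comparisons. Myc lymphoma 5 had the lowest Jak1 (133 CPM, against 329 to 699 CPM in the other Myc lymphomas), Jak2 (28.4 against 95.8 to 145 CPM) and Stat3 (56.6 against 140 to 195 CPM), and without it 3 fell against vector lymphomas and 5 against normal cells, Stat2 losing both calls (adjusted p = 0.060 and 0.061). Within the earlier runs edgeR called none of the 6 against vector lymphomas (1 lower at an unadjusted p under 0.05), where the median was -0.27 and adjusted p ran from 0.18 to 0.82 for the 4, and 1, Tyk2, fell against normal cells, where the median was -0.59. Of all genes tested in the earlier runs, 4.40% fell in Myc lymphomas against vector lymphomas and 7.97% against normal cells. Over all runs the 6 log2 fold changes in vector lymphomas against normal cells lay between -0.47 and 0.27, with adjusted p from 0.26 to 0.80 by edgeR.

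Other interferon regulatory factors fell likewise. 6 of 7 listed (Irf1, Irf2, Irf3, Irf4, Irf5 and Irf8) fell in Myc against vector lymphomas, where 21.9% of all genes did, with a median of -0.77 over the 7. In Myc lymphomas against normal cells 5 of 7 fell, where 17.9% of all genes did, with a median of -0.86. Of those given here, Irf7 was the one called higher in Myc against vector lymphomas. Irf1, an early target of type II interferon, fell by 1.44 (SE 0.18, adjusted p = 2.1e-06, edgeR) against vector lymphomas, and Irf3, which starts the making of interferon, by 0.77 (SE 0.14, adjusted p = 0.00021). Irf4 and Irf8, factors of B cell fate, fell by 1.59 (SE 0.40, adjusted p = 0.0027) and 0.68 (SE 0.26, adjusted p = 0.035). Irf9 gave -0.23 ± 0.18 (adjusted p = 0.28). Within the earlier runs 1 fell against vector lymphomas and 3 against normal cells, where 4.40% and 7.97% of all genes did. B cell markers fell in the same samples, as given above, and their part in these differences was not tested.

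**Figure D5:**
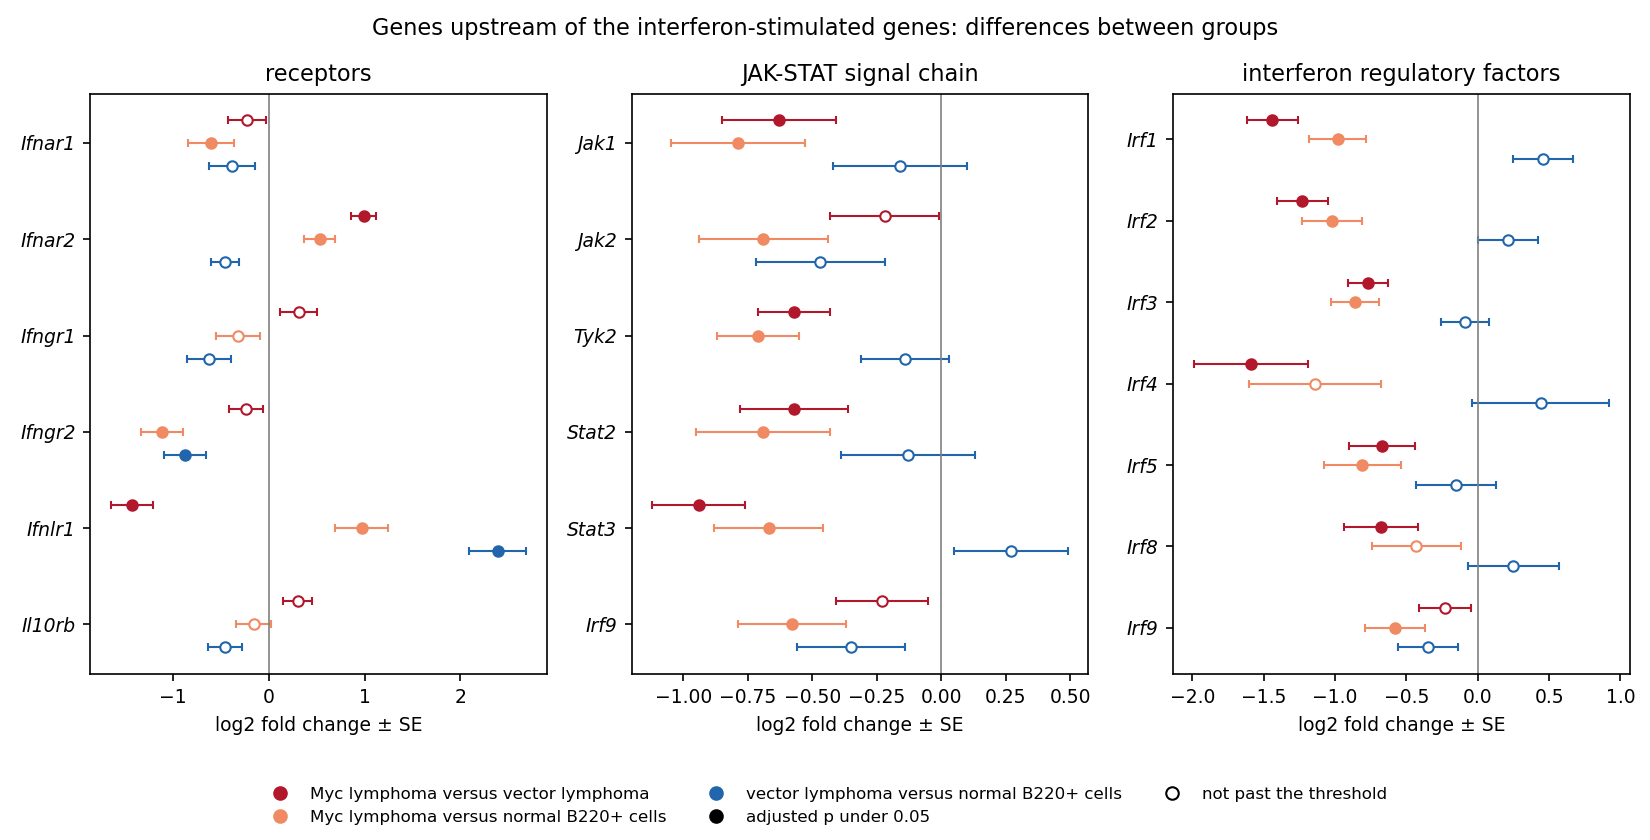
Log2 fold change (x axis) with its SE for the receptor chains, the JAK-STAT signal chain and interferon regulatory factors other than Irf7 (rows) in the 3 comparisons (colours); filled points have an adjusted p under 0.05. Points of both Myc comparisons lie left of 0 in every gene of the middle and right panels, while Ifnar2 (0.99 and 0.53) lies right of 0 in both.

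Sensors and brakes were mixed. Of 21 nucleic acid sensors and adaptors 2 rose and 6 fell in Myc against vector lymphomas, where 26.6% of all genes rose and 21.9% fell, and 2 rose and 11 fell in Myc lymphomas against normal cells, where 21.5% and 17.9% did. In the earlier runs 1 rose and 3 fell against vector lymphomas, where 2.97% and 4.40% of all genes did. Against normal cells 1 rose and 6 fell in those runs, where 12.7% and 7.97% of all genes did. Cgas, the sensor of cytosolic DNA, rose by 1.36 ± 0.19 against vector lymphomas (adjusted p = 9e-06, edgeR) and by 0.81 ± 0.23 against normal cells (0.0096), and Irak1, a kinase below the Toll-like receptors, rose by 0.56 ± 0.11 (0.00029) and 0.50 ± 0.13 (0.0058). Tlr3, a receptor of double-stranded RNA, fell by 1.89 (SE 0.38, adjusted p = 0.00043) and 3.15 (SE 0.43, adjusted p = 2e-05), and Aim2, another DNA sensor, by 0.98 (SE 0.16, adjusted p = 6.3e-05) and 1.07 (SE 0.19, adjusted p = 0.00024). Tlr7 alone was called in vector lymphomas against normal cells, falling by 1.42 (SE 0.31, adjusted p = 0.0046), which was lost within the earlier runs (-1.02, adjusted p = 0.63). Of 10 brakes on interferon signalling 2 rose and 6 fell in Myc against vector lymphomas, where 26.6% and 21.9% of all genes did. Within the earlier runs 2 of the brakes fell, where 4.40% of all genes did. Socs3, an inhibitor of the kinases, fell by 1.82 (SE 0.28, adjusted p = 3.2e-05) and the phosphatase Ptpn6 by 0.97 (SE 0.17, adjusted p = 0.00011), while Cish, a relative of Socs3, rose by 1.45 ± 0.32 (0.00096). In Myc lymphomas against normal cells 1 of the 10 brakes, Cish, rose and 5 fell, where 21.5% and 17.9% of all genes did.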

How the data were processed

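Messenger RNA libraries were read on the Ion Proton System, per the labels' protocols. The authors deposited raw read counts per Ensembl gene; the submitters' processing notes list the aligner BWA 0.7.5a, the counter HTSeq, Picard 1.119 and, as builds, NCBIM37 and mm9, with no role for each and no strand setting. Of all reads 37.1 to 57.0% were counted to genes per sample, and 14.25 to 40.33%, aligned to more than 1 place, were not, so near-identical genes may have lost reads. The 5 lines of unassigned reads stayed out of library sizes and tests.

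From the deposited counts, edgeR 4.0.16 (R 4.3.3) fitted all 20 samples at once (TMM, filterByExpr, quasi-likelihood F test, common biological coefficient of variation 0.465). Levels are CPM, with a prior count of 2 on the log2 scale. DESeq2 1.42.0, other scalings and filters, run period, the removal of each sample in turn and sums of counts by title prefix were alternatives. The test was checked on simulated data. Members, lists, tests and alternatives were chosen with earlier results of these data known, so counts over them are descriptions. Named genes are the members, all listed receptors, signal chain genes and interferon regulatory factors, up to 4 called genes of each other list with the smallest p, of which a part is given, and the 10 most like genes; Phrf1 is named for its overlap and Siglech, Ube2l6 and Isg20 also for values by sample. A few genes of these lists are not reported here. Symbols were matched by GENCODE and RefSeq names. Promoters are RefSeq's (GRCm38.p6), read over 200 bases before the start in place of a planned window that ran past it.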

Additional observations from a re-analysis of the deposited data

Results flagged for a closer look

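Samples were examined for a value far from the rest of its group, relative to the range of the group (Dixon's ratio), in 111 sets. For the 8 interferon-stimulated genes and their mean (27 sets) no sample stood out. In 84 further sets, of receptors, signal chain genes, interferon regulatory factors, marker sums and scaling factors, 9 did, where chance gives about 1 in 20. Myc lymphoma 5 was far below the other Myc lymphomas in log2 CPM of Jak1 (7.06), Jak2 (4.83), Stat3 (5.82) and Irf2 (4.89), and in its TMM factor (0.675). Myc lymphoma 2 was far below the others in log2 CPM of Ifng (0.03). Vector lymphoma 8 was far above the other vector lymphomas in log2 CPM of Ifngr1 (7.56). Among normal cells, replicate 1 was far above the others in log2 CPM of Tyk2 (7.26), and replicate 2 in the log2 of the summed CPM of erythroid markers (10.78).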

How the results depend on the processing

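Rsad2 and Isg15 in Myc lymphomas against normal cells kept direction in all 31 alternatives and their calls in 30, losing them with counts summed by title prefix. Under that alternative, chosen after the data were seen, 0 members were called in any comparison by edgeR, and of all genes 2409 were called in Myc against vector lymphomas, 243 in Myc lymphomas against normal cells and 11 in vector lymphomas against normal cells. In Myc against vector lymphomas the members called higher numbered 2 to 5 without single samples (5 without Myc lymphoma 1), 1 with run period as a term and 0 within the earlier runs, where 3 were called over all samples. In vector lymphomas against normal cells they numbered 1 to 2 without single samples, 0 with run as a term, 0 within the earlier runs, 2 within the later runs (chosen after the data were seen) and 2 with only the 2 groups in the fit. Members called lower there numbered 0 to 2 without single samples, 1 with library totals alone and 3 (Ifit1, Ifit2 and Ifit3) with only the 2 groups in the fit. Of all genes, 8654 were called in Myc against vector lymphomas (7866 to 8873 without single samples), against 3382 with run as a term, 1363 within the earlier runs and 5023 at 2-fold or more. In Myc lymphomas against normal cells 7025 were called (4960 to 7398 without single samples), against 3820 within the earlier runs and 4582 at 2-fold or more. In vector lymphomas against normal cells 1928 were called (1089 to 2979 without single samples, the highest without Myc lymphoma 5), against 1225 with run as a term, 123 within the earlier runs, 818 within the later runs and 3503 with only the 2 groups in the fit. The signs of small differences turned for Usp18 in Myc lymphomas against normal cells (-0.163 with library totals alone, and -0.066 to 0.280 on the log2 scale without single samples, negative without Myc lymphoma 5 or 6) and for Irf7 in vector lymphomas against normal cells (0.266 within the later runs, and -0.136 to 0.007 without single samples, positive without normal sample 4). Where samples were left out, summed or separated by run, fewer samples were in the fit; other causes were not tested. No paired analysis was possible because the numbers in the titles repeat within groups and are not said to mark a shared animal, litter or batch. Run and group overlap, and the later runs hold 1 normal sample, so a lone sample is assumed there to vary like the vector lymphomas.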
